A study of Mus musculus with 16 samples.

Results

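The genes described here are 9 tumor suppressors, or partners of tumor suppressors, of small cell lung cancer (SCLC). They are Rb1 and its relatives Rbl1 (p107) and Rbl2 (p130), Trp53 (p53) with its regulator Mdm2 and its target Cdkn1a, the Cdkn2a locus, and the acetyltransferases Crebbp and Ep300. A differentially accessible ATAC-seq peak was assigned to 1 of these genes when the protein-coding start site nearest to the peak's centre was that gene's. This gave 26 peaks of 80367 listed peaks in all, at 9 of 21934 protein-coding genes. The rule uses no measured value.

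ATAC-seq uses the Tn5 transposase to cut and tag open chromatin, so reads pile up at accessible sites. The study set GFPhigh SCLC cells (labelled Hes1-GFP positive, non-NE) against GFPneg cells (labelled Hes1-GFP negative, NE, for neuroendocrine) to find where accessibility differs between these cell states. Both populations came from TKO;Hes1 GFP/+ mice, which carry floxed alleles (fl/fl) of each of Rb, p53 and p130 and have GFP expressed from the endogenous Hes1 locus. Tumors were induced with Ad-CMV-Cre, given into the trachea of mice of 8 to 12 weeks of age and mixed gender, and were collected 6 to 7 months later. The CMV promoter does not restrict Cre to 1 lung cell type, and all tumors of a mouse were pooled before sorting. The floxed alleles and the Cre treatment are thus common to GFPhigh and GFPneg cells, recombination in the sorted cells was not measured in these files, and no control with these genes intact was used here. The labels give 4 pairs of populations from 3 mice, with 2 pairs from 1 mouse, as 8 libraries on 2 lanes each, which makes 16 runs.

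RB1, p107 and p130 are the pocket proteins, which bind E2F transcription factors and hold back genes of the cell cycle. p53 is activated by DNA damage and oncogenic stress and induces p21, the product of Cdkn1a, which inhibits the cyclin-dependent kinases that inactivate the pocket proteins. Loss of RB and p53 function is the defining genetic event of SCLC in patients and is the basis of the mouse model, and the histone acetyltransferase genes CREBBP and EP300 are recurrently mutated in the human disease.

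The floxed intervals of the 3 deleted genes were located first, because any accessible site inside them is absent from recombined cells of both populations. The study's genotyping primers bracket them, so the intervals given are slightly longer than the deleted DNA, and the forward primer and the reverse primer of the recombined allele are shown for each gene. All 6 had exactly 1 match in the mm10 assembly.
Rb1 forward, chr14:73298919-73298941, minus strand: ctctagatcctctcattcttccc
Rb1 reverse, chr14:73296412-73296435, plus strand: gcaggaggcaaaaatccacataac
Trp53 forward, chr11:69583065-69583085, plus strand: cgcaatcctttattctgttcg
Trp53 reverse, chr11:69591047-69591067, minus strand: tgagacagggtcttgctattg
Rbl2 forward, chr8:91073179-91073199, plus strand: gtgttgtaacattctcatggg
Rbl2 reverse, chr8:91074979-91074999, minus strand: catcccctcctatgaacatac

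The intervals between these primers span 2530 bp with exon 3 of 27 in Rb1, 8003 bp with exons 2 to 10 of 11 in Trp53, and 1821 bp with exon 2 of 22 in Rbl2. None of the 80367 listed peaks overlapped any of the 3 intervals. The nearest listed peak lay 14161 bp away at Rb1, 1416 bp away at Trp53 and 2316 bp away at Rbl2. All 5 Rb1 peaks and all 3 Trp53 peaks lay on the 5′ side of the interval, and of the 2 Rbl2 peaks 1 lay on each side. The promoters of the 3 genes lie outside the intervals, so that recombined alleles still contribute reads to their promoter peaks. Peaks that did not pass the authors' limits were not analysed here, so accessibility inside the intervals is not described.

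Of the 26 peaks, 17 were opened (more accessible in GFPhigh cells) and 9 were closed (less accessible). The authors called a peak where its adjusted p in DESeq2 was under 0.001 and its log2 fold change over 1 in either direction. About 153600 peaks entered that adjustment, as recovered from the p and adjusted p-values, of which 26.6% were called opened and 25.7% closed. Opened peaks made up 65.4% of the 26 (Wilson 95% interval 46.2 to 80.6%, counting error only) and 50.8% of all listed peaks. The share of all listed peaks lies inside this interval. Among those peaks with a log2 fold change over 2 in either direction the majority turned, with 6 opened and 8 closed (42.9% opened). The opened share of all listed peaks at this limit was not counted, so the turn is not read as particular to these genes. Opened promoter peaks of all genes had a median log2 fold change of 1.64, also below this limit. Peaks are not replicates, and with no value per library no test over samples could be run here. All fold changes below are GFPhigh over GFPneg as estimated by the authors, given ± standard error (SE), and a mean normalized count is over all libraries of both populations. A pool with more cells open at a site cannot be told apart from cells that are each more accessible.

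Every listed peak within 1 kb of a start site of these genes was opened, as were 74.3% of all listed peaks within 1 kb of a start site. At 7 of the 9 genes (77.8%) a listed peak lay within 1 kb of a start site of the gene and was opened, and none of the 9 had a closed peak there. Among all protein-coding genes, 28.7% had an opened and 8.64% a closed promoter peak. These shares include the 33.4% of protein-coding genes with no listed peak, whereas each of the 9 genes had at least 1. Mdm2 and Cdkn2a were the exceptions, with no listed promoter peak in either direction. With a limit of 2 on the log2 fold change only Trp53 kept an opened promoter peak. With promoters drawn to 3 kb, the count was 8 genes with an opened and 1 with a closed promoter peak, since a closed Cdkn2a peak lies 2060 bp upstream of a start site. The 9 promoter peaks assigned to the 7 genes had log2 fold changes from 1.04 to 2.01 with a median of 1.67, close to the median of 1.64 over all 7694 opened promoter peaks (interquartile range 1.32 to 2.11). The 8 opened peaks farther out spread more widely, from 1.20 to 4.57 with a median of 2.98 (3.23 over all such peaks). The 9 closed peaks all lay over 1 kb from a start site of their gene, as did 93.3% of all closed peaks, with log2 fold changes from -3.34 to -1.36 and a median of -2.56 (-2.69 over all such peaks). Median GC content was 66.0% in the promoter peaks, 50.8% in the other opened peaks and 47.5% in the closed peaks, each in the central 200 bp.

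**Figure D1:**
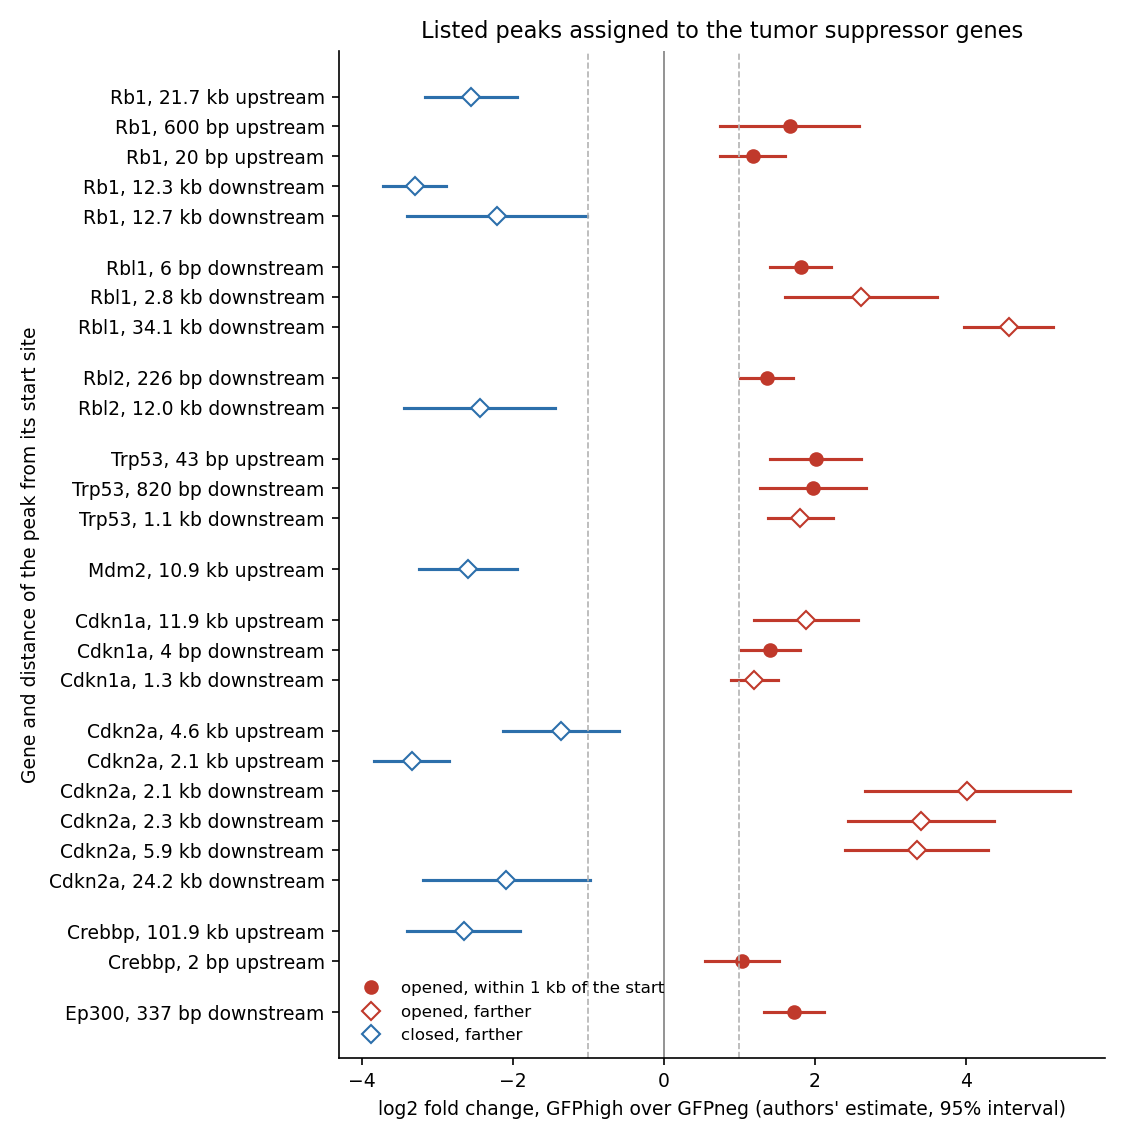
Log2 fold change (x axis, GFPhigh over GFPneg, with 95% intervals from the authors' SE) of the 26 listed peaks, grouped by gene and ordered along it (y axis, distance from the nearest start site of the gene). Filled red circles are opened peaks within 1 kb of the start, open diamonds are peaks farther out, blue is closed, and dashed lines mark the authors' limit of 1. All 9 filled circles lie between 1.04 and 2.01, and all 9 closed peaks are open diamonds.

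Sequences that mark these peaks are shown with exact matches to short motif strings in capitals, because E2F and p53 are the factors through which these genes act, and TEAD and AP-1 strings were the most frequent of those searched among opened and closed peaks over 1 kb from a start site. The strings were TTTCCCGC, TTTCGCGC, TTTGCCGC and TTTGGCGC for E2F, CATTCC for TEAD, TGANTCA for AP-1, TGTTTAC for FOX factors, GTGGGAA for RBPJ, the DNA-binding partner of Notch, and GCTGTCC for REST, each on both strands. The p53 half-site is the 10-base consensus bound by a pair of p53 subunits. No match to one motif shared a base with a match to another in the sequences shown. All are read from GRCm38.p6, the assembly of mm10, on the strand of the gene. A match is a run of letters and does not show that the factor was bound.
Rb1 promoter, chr14:73325813-73326022, minus strand, E2F in capitals: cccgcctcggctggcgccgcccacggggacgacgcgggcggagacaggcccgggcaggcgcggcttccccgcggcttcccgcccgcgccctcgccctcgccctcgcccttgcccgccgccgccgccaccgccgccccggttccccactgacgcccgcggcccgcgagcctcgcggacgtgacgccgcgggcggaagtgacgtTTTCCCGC
Rbl1 promoter, chr2:157204513-157204712, minus strand, TEAD then E2F: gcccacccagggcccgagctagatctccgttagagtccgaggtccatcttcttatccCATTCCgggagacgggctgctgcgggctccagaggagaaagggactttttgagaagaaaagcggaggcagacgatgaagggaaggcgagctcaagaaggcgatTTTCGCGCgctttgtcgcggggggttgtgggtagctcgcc
Trp53 promoter, chr11:69580185-69580358, plus strand, p53 half-site: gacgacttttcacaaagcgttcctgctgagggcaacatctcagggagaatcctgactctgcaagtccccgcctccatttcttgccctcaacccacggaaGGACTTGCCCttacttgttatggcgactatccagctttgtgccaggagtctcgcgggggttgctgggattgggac
Trp53 intron 1, chr11:69581389-69581649, plus strand, TEAD: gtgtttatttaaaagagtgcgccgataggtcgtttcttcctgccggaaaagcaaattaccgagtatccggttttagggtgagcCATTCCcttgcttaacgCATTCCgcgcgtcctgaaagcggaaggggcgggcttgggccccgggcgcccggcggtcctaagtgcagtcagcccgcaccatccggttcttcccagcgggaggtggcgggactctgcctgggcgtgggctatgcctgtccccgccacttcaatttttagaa
Rbl1 intron 14, chr2:157170286-157170585, minus strand, FOX directly followed by AP-1, then TEAD at 2 places: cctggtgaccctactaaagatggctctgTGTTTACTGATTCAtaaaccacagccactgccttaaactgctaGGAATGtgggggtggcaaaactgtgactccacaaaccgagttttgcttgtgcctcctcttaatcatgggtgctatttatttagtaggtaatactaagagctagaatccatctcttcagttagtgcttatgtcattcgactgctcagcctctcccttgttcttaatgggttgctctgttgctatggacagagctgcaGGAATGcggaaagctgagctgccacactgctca
Rb1 intron 2, chr14:73313425-73313624, minus strand, none of the strings: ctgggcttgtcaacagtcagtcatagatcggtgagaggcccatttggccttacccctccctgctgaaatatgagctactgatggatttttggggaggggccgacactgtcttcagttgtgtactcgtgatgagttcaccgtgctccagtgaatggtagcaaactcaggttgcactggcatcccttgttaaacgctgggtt
Mdm2 upstream, chr10:117721508-117721790, minus strand, FOX, p53 half-site, then AP-1 at 2 places: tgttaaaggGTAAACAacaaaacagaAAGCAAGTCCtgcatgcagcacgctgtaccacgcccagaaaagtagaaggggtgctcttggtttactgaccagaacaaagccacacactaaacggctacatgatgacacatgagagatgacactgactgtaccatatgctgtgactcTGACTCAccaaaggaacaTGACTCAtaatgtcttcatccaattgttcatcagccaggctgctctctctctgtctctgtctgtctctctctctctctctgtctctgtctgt
Cdkn2a upstream, chr4:89296554-89296853, minus strand, AP-1: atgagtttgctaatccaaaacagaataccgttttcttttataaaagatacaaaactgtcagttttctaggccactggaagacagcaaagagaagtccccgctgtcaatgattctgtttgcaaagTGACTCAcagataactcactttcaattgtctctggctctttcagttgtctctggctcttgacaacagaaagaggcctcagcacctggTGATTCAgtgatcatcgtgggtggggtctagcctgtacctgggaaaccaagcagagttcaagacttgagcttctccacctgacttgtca
Cdkn2a intron 1, chr4:89279999-89280117, minus strand, p53 half-site: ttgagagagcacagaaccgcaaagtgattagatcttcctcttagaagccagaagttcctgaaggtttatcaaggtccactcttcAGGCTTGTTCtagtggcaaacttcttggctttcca
Cdkn2a intron 1, chr4:89279766-89279934, minus strand, FOX then p53 half-site: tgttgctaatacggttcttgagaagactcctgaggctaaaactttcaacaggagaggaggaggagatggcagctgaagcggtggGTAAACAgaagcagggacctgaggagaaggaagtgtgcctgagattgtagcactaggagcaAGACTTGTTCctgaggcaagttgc
Cdkn1a region, Trp53cor1 promoter, chr17:29078999-29079088, plus strand, p53 half-site: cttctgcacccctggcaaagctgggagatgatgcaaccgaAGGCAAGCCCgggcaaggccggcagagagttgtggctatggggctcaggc

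Rb1, the retinoblastoma gene, had 2 opened peaks at its promoter and 3 closed peaks farther out. The promoter peak at chr14:73325387-73326298, centred 20 bp upstream of the start site, held a mean normalized count of 652, the highest of all 26 peaks, and its log2 fold change was 1.18 ± 0.22 (DESeq2 adjusted p = 1.87e-07), or 2.26-fold. The E2F match in capitals at the end of the Rb1 promoter sequence above lies just inside the first exon, and a second copy of the same 8 bases lies at -459 bp from the start within the same peak. A smaller peak at chr14:73326368-73326476, 600 bp upstream, had a mean count of 19.4 and a log2 fold change of 1.67 ± 0.47 (DESeq2 adjusted p = 6.88e-04). Its interval of 0.75 to 2.59 reaches below the authors' limit, as does that of the main promoter peak, 0.75 to 1.60.

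The intron 2 peak of Rb1 changed more in size than its main promoter peak. This closed peak, at chr14:73313318-73313730 and 12.3 kb downstream of the start, fell to a level 9.86-fold lower in GFPhigh cells, with a log2 fold change of -3.30 ± 0.21 (DESeq2 adjusted p = 2.13e-51) on a mean count of 179. This is the smallest p-value of the 26 peaks, and only 0.564% of all closed peaks had a smaller one. A small neighbour in the same intron, chr14:73313102-73313178, went the same way (-2.21 ± 0.61) on a mean count of 10.2. The third closed peak, chr14:73347294-73347751, lay 21.7 kb upstream in intergenic DNA and had a log2 fold change of -2.56 ± 0.31. None of the 7 motifs matched either intron 2 peak.

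At Trp53, all 3 assigned peaks were opened by similar amounts. The promoter peak, chr11:69580185-69580448, was centred 43 bp upstream of the start and had a log2 fold change of 2.01 ± 0.31 (DESeq2 adjusted p = 2.85e-10), the largest of the 9 promoter peaks, on a mean count of 84.3. In intron 1, the peaks at chr11:69581155-69581296 and chr11:69581389-69581649, at 820 bp and 1.1 kb from the start, had log2 fold changes of 1.97 ± 0.36 and 1.81 ± 0.22. The SEs of the 3 values overlap, so no order among them is read. The second intron 1 peak carried 2 TEAD matches whose starts are 17 bp apart, seen in capitals in its sequence. The Trp53 promoter shares its DNA with the divergent gene Wrap53, whose own opened promoter peak lies within 1 kb of a Trp53 start but was assigned to Wrap53.

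The neighbourhood of Trp53 was opened almost throughout. Of 202 listed peaks of other genes within 1 Mb, 94.6% were opened (Wilson 90.5 to 96.9%), the highest share around any of the 9 genes. On the whole of chromosome 11, 71.1% of 5266 peaks were opened, against 50.8% of all listed peaks. Beyond 50 Mb, the part of the chromosome that holds Trp53, the share was higher, at 79.9% of 3954 peaks. The part of the region in the Trp53 values was not tested. Without Trp53, 14 of the remaining 23 peaks were opened (60.9%).

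Rbl2, which encodes p130 and is the third deleted gene, had 1 opened and 1 closed peak. Its promoter peak at chr8:91069906-91070863 had a mean count of 346 and a log2 fold change of 1.36 ± 0.18 (DESeq2 adjusted p = 2.34e-13), or 2.56-fold. The closed peak in intron 4, chr8:91082081-91082262, lay 12013 bp from the start on the 3′ side of the floxed exon and had a log2 fold change of -2.44 ± 0.51 (DESeq2 adjusted p = 4.73e-06) on a mean count of 17.3. The promoter change is the more precisely measured of these values.

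**Figure D2:**
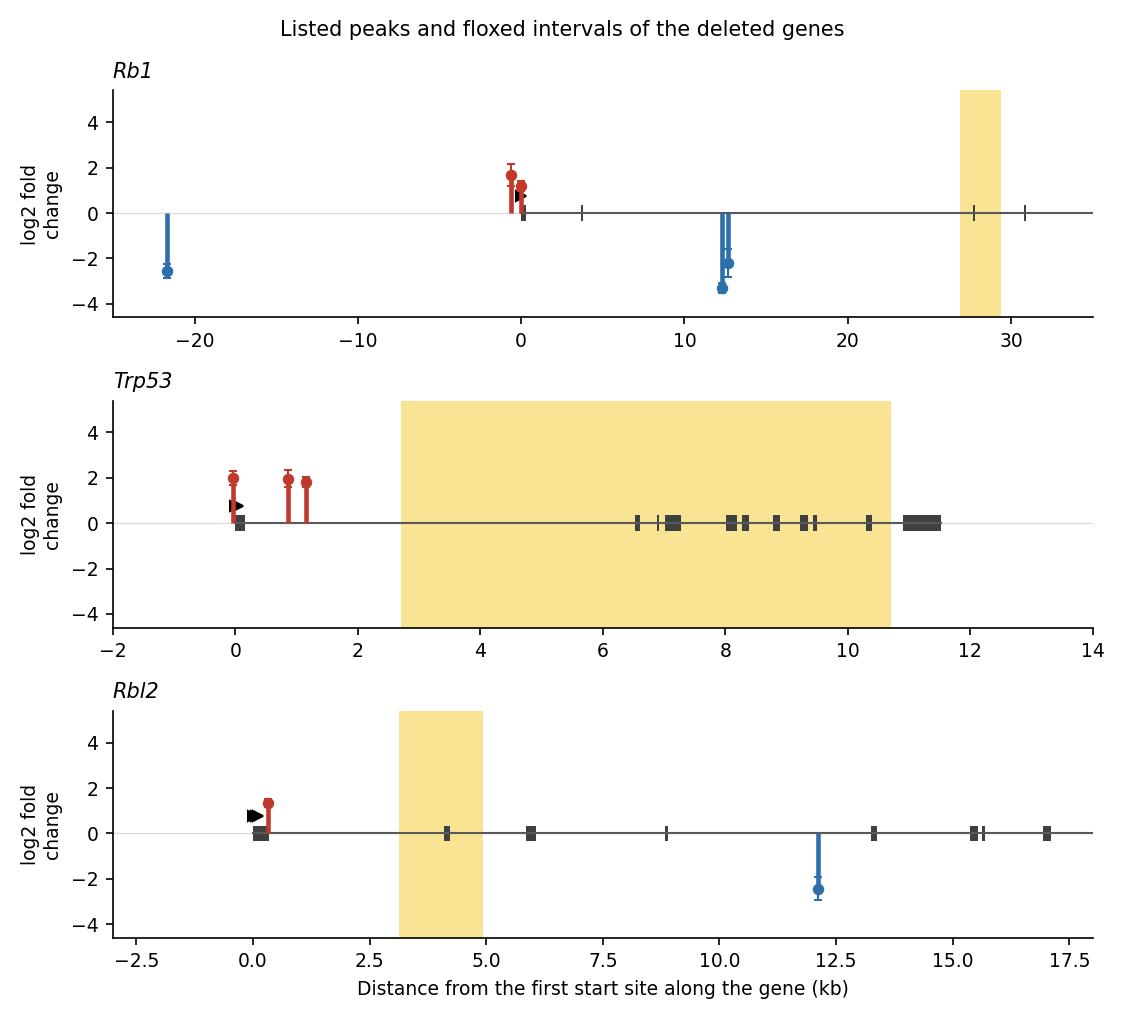
Listed peaks of the deleted genes (height, log2 fold change ± SE, red opened, blue closed) against distance from the first start site along the gene (x axis, kb), with exons as dark boxes, start sites as arrowheads and the floxed interval in yellow. Rb1 and Rbl2 are drawn to 35 and 18 kb. No listed peak falls in a yellow interval, and the opened peaks cluster at the start sites.

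Rbl1 encodes p107, the pocket protein that the mice retain, and its 3 peaks were all opened. The peak in intron 14, chr2:157170187-157170648, 34.1 kb downstream of the start, had the largest fold change of the 26 peaks, 23.7-fold (log2 4.57 ± 0.30, DESeq2 adjusted p = 2.00e-49, mean count 130). It lies 1597 bp from the start of the processed pseudogene Gm14277, so its link to Rbl1 is by the nearest coding start. Its sequence holds TEAD, AP-1, FOX and RBPJ matches, the most kinds of any of the 26 peaks. Of these only 1 TEAD match lies in the central 200 bases. The promoter peak at chr2:157204000-157205013 had a log2 fold change of 1.82 ± 0.21 (DESeq2 adjusted p = 1.01e-17) on a mean count of 283, with an E2F match at -40 bp from the start and another 383 bp downstream. A peak in intron 1, 2.8 kb from the start, had a log2 fold change of 2.61 ± 0.52 on a mean count of 21.3. Around Rbl1, 84.6% of 104 listed peaks of other genes within 1 Mb were opened, so the direction is also that of its surroundings, and the part of the surroundings was not tested.

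Cdkn1a encodes p21, the cyclin-dependent kinase inhibitor that p53 induces, and its 3 peaks were all opened. The promoter peak at chr17:29093539-29094031 sits on an internal start site of the gene, 4 bp from its centre, with a log2 fold change of 1.41 ± 0.20 (DESeq2 adjusted p = 9.99e-12) on a mean count of 282. The peak in intron 1, chr17:29094369-29095733, held a mean count of 503 and had a log2 fold change of 1.20 ± 0.16 (DESeq2 adjusted p = 3.80e-13). Its interval of 0.89 to 1.51 crosses the authors' limit of 1. It lies 590 bp from the start of the annotated gene AC167363.2, which is not classed as protein-coding. Its central 200 bases hold an E2F and a TEAD match, and 3 AP-1 matches lie elsewhere in the peak. The third peak, chr17:29078876-29079255, is 11.9 kb upstream of Cdkn1a but 114 bp from the start of Trp53cor1 (lincRNA-p21), a noncoding RNA gene induced by p53. Its log2 fold change was 1.88 ± 0.35, and the p53 half-site shown above lies in its central 200 bases. The first start site of Cdkn1a had no listed peak within 1 kb. As at Rbl1, peaks of other genes within 1 Mb were mostly opened (85.3% of 150).

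Mdm2, the ubiquitin ligase that degrades p53 and is itself a p53 target, had 1 listed peak and it was closed. This peak, chr10:117721508-117721790, 10.9 kb upstream of the start, had a log2 fold change of -2.59 ± 0.33 (DESeq2 adjusted p = 5.51e-14), or 6.02-fold lower, on a mean count of 57.1. Its sequence shows a p53 half-site, a FOX match and a pair of AP-1 matches whose starts are 18 bp apart, of which the AP-1 matches lie in the central 200 bases. Mdm2 thus went against Cdkn1a in its listed peaks, at an upstream site rather than at the promoter, and the difference between the genes was not tested.

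Cdkn2a encodes p16INK4a and ARF from separate first exons, which inhibit cyclin-dependent kinases and MDM2. It had the most peaks of the 9 genes, 3 opened and 3 closed. The opened peaks lay next to each other along the locus, with closed peaks on both sides. The 3 opened peaks lay downstream of the more 3′ of its 2 start sites. Their log2 fold changes were 4.02 ± 0.69 at 2.1 kb, 3.41 ± 0.49 at 2.3 kb (DESeq2 adjusted p = 2.52e-11) and 3.35 ± 0.48 at 5.9 kb. Their mean counts were low, from 15.7 to 24.6, and the 3 values do not differ beyond their SEs. The neighbouring peaks at 2.1 and 2.3 kb, both shown above, hold 1 p53 half-site each, the second also a FOX match.

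The closed Cdkn2a peaks lay upstream of that start site or beyond the 3′ end of the gene. The strongest, chr4:89296554-89296873, 2.1 kb upstream of the 5′-most start site, had a log2 fold change of -3.34 ± 0.25 (DESeq2 adjusted p = 5.21e-39), or 10.2-fold lower, on a mean count of 150, with 2 AP-1 matches. Only 1.98% of closed peaks had a smaller p-value. A peak between the start sites, chr4:89286697-89286859, had a log2 fold change of -1.36 ± 0.39 (DESeq2 adjusted p = 9.83e-04), just inside the authors' limit on the adjusted p, and an interval of -2.13 to -0.59. The third, 24.2 kb downstream of the nearer start, had a log2 fold change of -2.09 ± 0.56 on a mean count of 13.7 and lies in the noncoding gene Gm12606. No listed peak lay within 1 kb of either start site. Under an adjusted p limit of 1e-05 only 1 of the 3 closed peaks was kept, beside all 3 opened peaks.

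**Figure D3:**
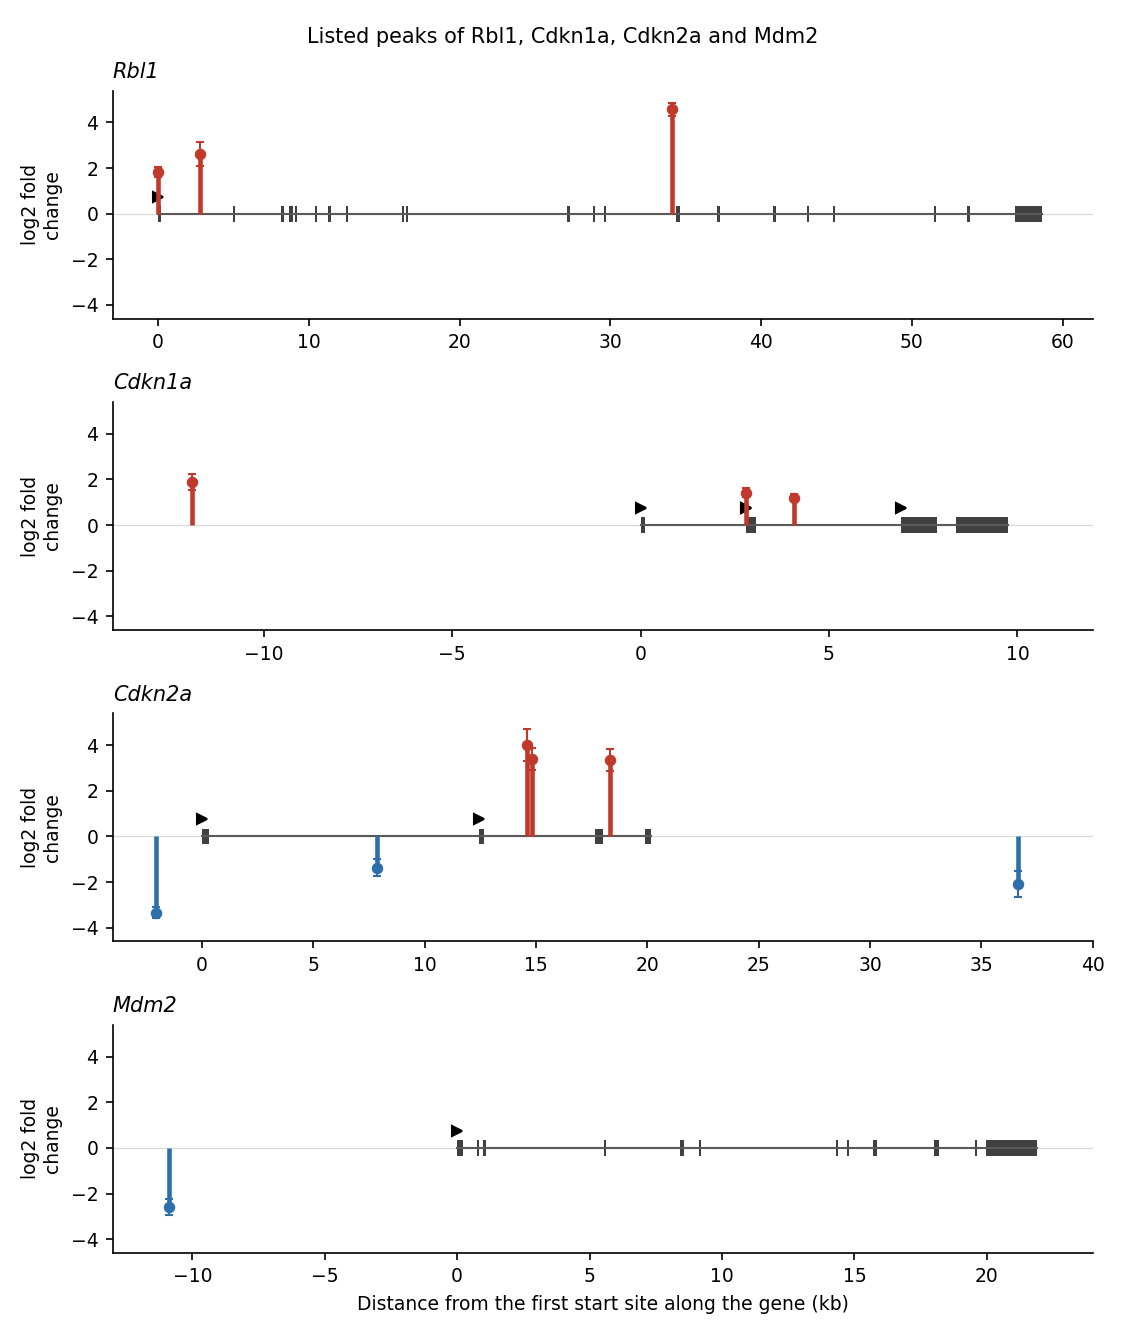
Listed peaks of Rbl1, Cdkn1a, Cdkn2a and Mdm2 (height, log2 fold change ± SE, red opened, blue closed) against distance from the first start site along the gene (x axis, kb), with exons as dark boxes and start sites as arrowheads. The Rbl1 peak in intron 14 reaches 4.57, and at Cdkn2a the opened peaks all lie 3′ of the second start site while the strongest closed peak, at -3.34, lies upstream of the first. Another closed Cdkn2a peak lies 3′ of the opened ones.

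Crebbp and Ep300 encode the paralogous acetyltransferases CBP and p300, coactivators of p53 and many other factors. Ep300 had 1 peak, at its promoter (chr15:81584973-81586496), which was opened with a log2 fold change of 1.72 ± 0.20 (DESeq2 adjusted p = 1.87e-16) on a mean count of 549. The Crebbp promoter peak, chr16:4213205-4213625, had the smallest opened change of the 26 peaks, 1.04 ± 0.25 (DESeq2 adjusted p = 6.55e-05), and its interval of 0.55 to 1.53 spans the authors' limit. The other Crebbp peak was closed (-2.65 ± 0.38, mean count 38.0), but it lay 101.9 kb upstream inside the neighbouring gene Adcy9, an adenylate cyclase, so its link to Crebbp is by distance alone. The intervals of the promoter changes, 0.55 to 1.53 for Crebbp and 1.32 to 2.12 for Ep300, overlap.

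The direction at the genes could be set beside the listed peaks of other genes within 1 Mb, which share the chromosomal region. The share opened ranged from 41.1% of 56 peaks around Rb1 and 45.0% of 111 around Mdm2, through 52.1% of 48 around Cdkn2a, 56.0% of 75 around Crebbp and 60.2% of 83 around Rbl2, to between 84.6 and 94.6% around Rbl1, Cdkn1a, Ep300 and Trp53. The 4 genes in the most opened neighbourhoods are those whose own peaks were all opened, though each has only 1 to 3 peaks. The other 5 genes lie in mixed neighbourhoods and account for all 9 closed peaks. At Rb1, Rbl2 and Crebbp the promoter was opened in such a mixed neighbourhood. The part of the neighbourhoods in the directions at the genes was not tested.

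**Figure D4:**
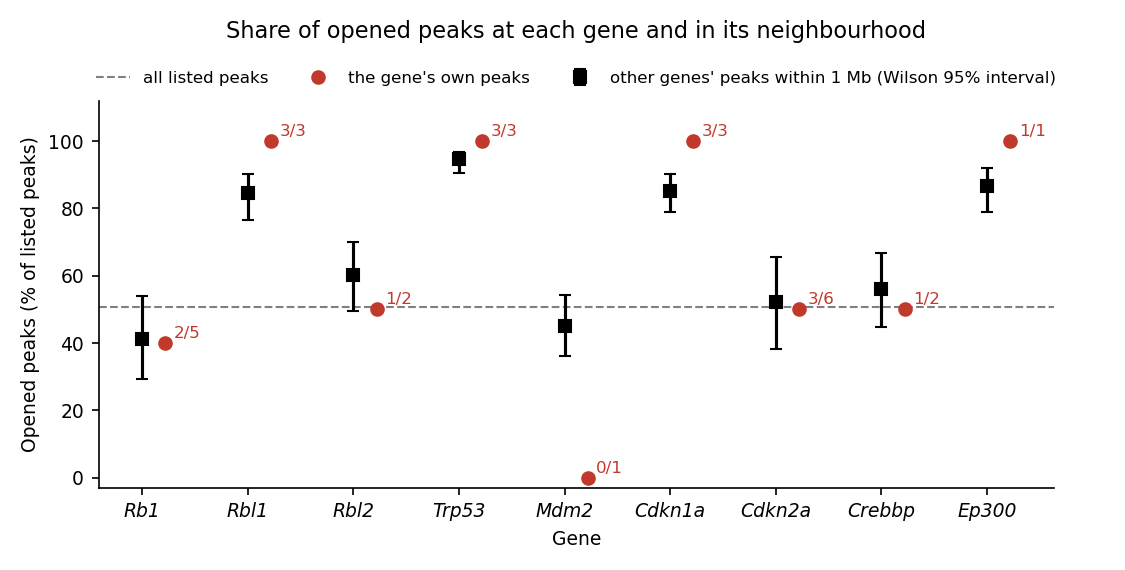
Percent of listed peaks that were opened (y axis) for each gene (x axis), with the gene's own peaks as red circles labelled opened/all and the listed peaks of other genes within 1 Mb as black squares with Wilson 95% intervals. The dashed line is the 50.8% of all listed peaks. The squares of Rbl1, Trp53, Cdkn1a and Ep300 lie at 84.6% or above.

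Matches to the motif strings were counted in the central 200 bases of each peak, and 16 of the 26 peaks held at least 1 of the 7 motifs. The share of all listed peaks with at least 1 of the 7 was not counted, so this number has no comparison. AP-1 strings lay in 4 of the 9 closed peaks (at Mdm2, at 2 Cdkn2a peaks and at the distant Crebbp peak) and, in this central window, in none of the 17 opened peaks. The share over all listed peaks was 27.5% of closed and 12.1% of opened peaks over 1 kb from a start, and 4.19% of opened promoter peaks. TEAD strings lay in 3 of the 8 opened peaks over 1 kb from a start (at Rbl1, Trp53 and Cdkn1a), where the share over all such peaks was 20.3%. They lay in 1 of the 9 opened promoter peaks (at Rb1, 9.09% over all) and in no closed peak (8.92% over all closed peaks over 1 kb from a start). E2F strings lay in the promoter peaks of Rb1 and Rbl1, where 2.38% of all opened promoter peaks had one, and in the intron 1 peak of Cdkn1a, where the share of opened peaks over 1 kb from a start was 0.546%. Half-sites of p53 lay in 5 peaks (19.2%, against 6.88% of all listed peaks). A full p53 site, taken as 2 half-sites at most 13 bases apart, lay in none of the 26 peaks at full width and in 0.0709% of all listed peaks. FOX and REST strings lay in 1 peak each (3.85%, against 8.25 and 4.29% of all listed peaks) and RBPJ strings in none (4.89%). Over whole peaks the counts were 3 for FOX and REST each (11.5%, against 10.4 and 6.90% of all listed peaks) and 2 for RBPJ (7.69%, against 7.45%). These counts over few peaks are descriptions.

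The promoter windows of the RefSeq table (build GRCm38.p6) could be matched for 8 of the 9 genes, all but Rb1. The shares below are per window, and Cdkn1a and Cdkn2a have separate windows for different start sites. E2F strings were present at Rbl1 and Cdkn2a, where 2.26% of 32851 promoters had one. A p53 half-site was present at Trp53, Mdm2 and Cdkn1a, where the share was 8.36%. Of these genes, Mdm2 and Cdkn2a had no listed promoter peak.

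Other genes of the same pathways were taken from 3 wider lists, of which none holds any of the 9 genes. In the RB-E2F network of 30 genes (E2F factors, their DP and MuvB partners, cyclins, kinases and kinase inhibitors), 86 of 136 listed peaks were opened (63.2%, against 50.8% of all listed peaks). Of these genes, 11 had an opened promoter peak (36.7%), among them E2f1 at a log2 fold change of 1.41. The only closed promoter peak was at Tfdp2, which encodes an E2F partner (3.33% of the genes, against 8.64% of all protein-coding genes). The most opened peaks were at the kinase inhibitor genes Cdkn2b (15, with 7 closed) and Cdkn1c (10, with 4 closed) and at the cyclin genes Ccnd1 (9, with 3 closed) and Ccnd3 (9, with 1 closed). Besides Cdkn2b, the most closed peaks were at Tfdp1 (10, with 1 opened) and E2f3 (8, with 2 opened). Cdkn2b is the neighbour of Cdkn2a, and its strongest opened peak, 117.0 kb upstream of its start, had a log2 fold change of 4.19 ± 0.21 (DESeq2 adjusted p = 1.54e-86).

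In the p53 network of 35 genes (kinases, regulators and targets of p53), 99 of 174 peaks were opened (56.9%, against 50.8% of all), and 19 genes had an opened promoter peak (54.3%). Closed promoter peaks were found at Chek1, a checkpoint kinase gene, and at Eda2r, a receptor gene induced by p53, or 5.71% of the genes against 8.64% of all. All 9 listed Eda2r peaks were closed, and the strongest, at the promoter, had a log2 fold change of -2.55 ± 0.22 (DESeq2 adjusted p = 1.63e-30). Gadd45a had 13 opened and 11 closed peaks, Trp63 9 of each, Btg2 8 opened and 2 closed, and Plk2 6 opened and 13 closed.

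The third list, 23 other suppressors and chromatin regulators of SCLC, had 108 of 200 peaks opened (54.0%, near the 50.8% of all) and an opened promoter peak at 17 genes (73.9%). The only closed promoter peak was at Fhit, a fragile-site gene, which also had the most closed peaks (32, with 4 opened), ahead of the cadherin gene Fat1 (27, with 10 opened) and the chromatin remodeler gene Arid1b (17). Arid1b also had the most opened peaks (27). These shares are descriptions beside the 28.7% of all protein-coding genes and the 77.8% of the 9 genes, and the differences between lists were not tested.

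**Figure D5:**
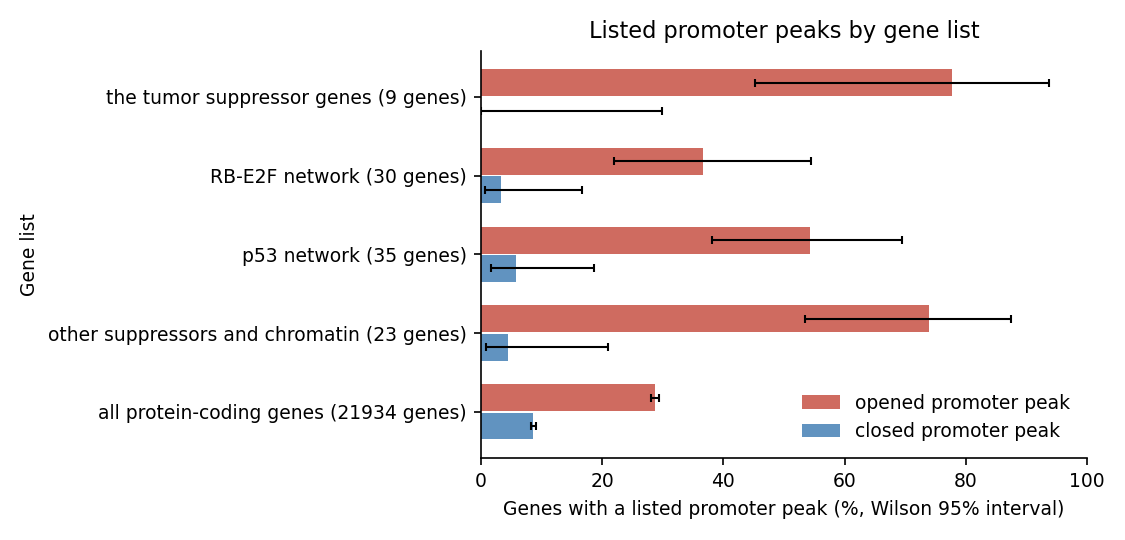
Percent of genes with an opened (red) or closed (blue) listed promoter peak (x axis, bars from 0, Wilson 95% intervals) for the 9 genes, the 3 wider lists and all protein-coding genes (y axis). The opened share of the 9 genes is 77.8% with an interval of 45.3 to 93.7%, and that of all protein-coding genes is 28.7%. The intervals hold counting error only, and the listed genes were not drawn at random.

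The sorted populations were checked by marker genes. Of 65 listed peaks of 6 NE genes, 54 were closed, and 5 of these genes had a closed promoter peak (Syp had no listed peak). All 6 non-NE genes had an opened promoter peak, and 62 of their 82 listed peaks were opened. Markers of other cell types moved too. Leukocyte genes had 13 opened and 5 closed peaks, with none at a promoter. Endothelial genes had 10 opened and 35 closed peaks, with 1 promoter opened, at Kdr (log2 fold change 1.68). Fibroblast genes had 7 opened peaks, all at Col1a1 and with its promoter among them (2.09), and 7 closed peaks at Col1a2 and Pdgfra, with the Col1a2 promoter among them (-2.43). Cells were stained for CD45, of leukocytes, and CD31, of endothelium, for the sort. The part of such cells in the values of the 9 genes was not tested.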

How the data were processed

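The authors deposited 1 signal value for each peak, a mean normalized count over the libraries of both populations, scaled by DESeq2 size factors. The authors trimmed reads, aligned them to mm10 with Bowtie2 2.3.4.1, removed duplicates, called narrow peaks with MACS2 with reads shifted around Tn5 insertions, and merged the peaks of all samples. The deposited log2 fold changes, standard errors, p-values and adjusted p-values are from the authors' DESeq2 1.28.1 Wald test of GFPhigh over GFPneg with Benjamini-Hochberg adjustment, and the lists keep adjusted p under 0.001 and log2 fold change over 1 either way. These columns of the authors' own comparison are used as the authors' estimates. No value per library was used here, so depth is unknown, no SD or n is given, and no test was run. Whether lanes and pairs from 1 mouse were summed is not given in the sources used here, so the SEs may count repeated runs as separate samples.

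Positions are 1-based on mm10. Start sites, exons and introns are those of the GENCODE vM21 basic annotation on GRCm38.p6. A peak was assigned to the nearest protein-coding start site at any distance, and a promoter peak lies within 1 kb of one. Sequences were read from that assembly. The genotyping primers were placed by exact match. Motifs were exact strings on both strands, in the central 200 bp unless the whole peak is named. Confidence intervals of shares are Wilson intervals at 95%, and those of fold changes are normal intervals from the authors' SE. The assignment was tested on simulated data. Python 3.11.15, numpy 2.4.6, pandas 2.3.3 and matplotlib 3.10.9 were used.

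The text names all 9 genes, every promoter peak, the peak of smallest adjusted p in each direction per gene, the 3 genes with the most opened and the 3 with the most closed peaks of each wider list, and peaks at the floxed intervals. The values of 1 gene that this rule names are not reported here. E2f1 and the genes with closed promoter peaks in the wider lists were chosen after seeing their values. The member genes, lists and motifs were chosen with earlier results of these data known.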

Additional observations from a re-analysis of the deposited data

How the results depend on the processing

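No paired analysis was possible because the lists give no value per library, and for the same reason no replicate could be left out. A limit of 2 on the log2 fold change left 6 opened and 8 closed peaks, so 42.9% were opened, and 1 gene (Trp53) with an opened promoter peak in place of 7. The promoter changes lie mostly between 1 and 2, which is why they drop out. Under an adjusted p limit of 1e-05, a largest distance of 100 kb, gene bodies extended by 10 kb, start sites of every biotype, or merging within 100 bp, between 13 and 22 peaks were opened and between 6 and 10 closed, with 60.9 to 71.4% opened. Promoters within 3 kb gave 8 genes with an opened and 1 with a closed promoter peak (in place of 0), and the stricter adjusted p gave 6 with an opened one. Whole peaks gave 18 with a motif in place of 16. With start sites of every biotype Cdkn1a kept 1 opened peak of 3, Rbl1 2 of 3 (losing the intron 14 peak) and Cdkn2a 2 of 3, while Rb1 and Cdkn2a each kept 2 closed peaks of 3 and Crebbp none. Leaving out Trp53, the full p53 site and the count of closed promoters at 3 kb were chosen after seeing the data. Crebbp's closed peak is lost at 100 kb, and Mdm2's closed peak is lost when gene bodies extended by 10 kb are used. The same setting gave Rb1 6 opened and 5 closed peaks in place of 2 and 3, which turns its majority. Over whole peaks FOX and REST each matched 3 peaks in place of 1, and RBPJ 2 in place of 0. In the same setting AP-1 matched 6 in place of 4, p53 half-sites 7 in place of 5 and TEAD 5 in place of 4. Depth per library is unknown.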

Other observations

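The Rb1 gene body held 7 listed peaks that are nearest to Lpar6, a lysophosphatidic acid receptor gene nested in an Rb1 intron 3′ of the floxed exon. Of these, 4 were opened and 3 closed. The most precisely measured, chr14:73262190-73262553, was opened with a log2 fold change of 2.18 ± 0.25 (DESeq2 adjusted p = 6.61e-18) on a mean normalized count of 83.0. The closed peaks had mean counts from 6.01 to 10.7 and log2 fold changes from -3.39 to -3.02.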
